A study of Mus musculus with 15 samples.

Results

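Transcripts of 10 mouse genes that encode parts of the sperm tail, Odf1, Odf2, Odf4, Oaz3, Akap3, Akap4, Fscb, Ropn1, Ropn1l and Spa17, were followed in 15 testis libraries. The members were the rows of the deposited expression table whose Entrez Gene ID maps to these symbols, 10 of the 23510 gene IDs in the table, and all 10 were found and passed the filter on low values. The libraries fall into 5 groups of 3, all from ICR mice, an outbred stock. Con is labelled only as control. MNC is the vector control of the M receptor lentivirus, and M1, M3 and M5 carry a knockdown of the muscarinic acetylcholine receptor of that name, encoded by Chrm1, Chrm3 and Chrm5. Per the study's methods, the virus was injected into the testes of mice 5 weeks old, the knockdown virus was a mixture of 3 short hairpin RNAs per receptor, and the testes were collected 10 days later. The methods used here describe no Con group, so its age and handling are not known, and the labels do not say whether the 3 libraries of a group came from separate animals. If they did not, the p-values given here measure technical spread alone.

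The sperm tail carries accessory structures around its axoneme. Outer dense fibres run along the axoneme through the midpiece and principal piece and give the tail stiffness, and the fibrous sheath encloses them in the principal piece and holds enzymes of glycolysis and of signalling. Both are built in elongating spermatids, the late haploid germ cells, from transcripts made after meiosis. Odf1 and Odf2 encode the main proteins of the outer dense fibres, Odf4 a further fibre-associated protein of the tail, and Oaz3 a testis-specific ornithine decarboxylase antizyme made in haploid germ cells. Akap4, an X-linked gene, and Akap3 encode the A-kinase anchoring proteins that form the scaffold of the fibrous sheath and tether cAMP-dependent protein kinase (PKA). Fscb encodes a calcium-binding protein of the sheath. Ropn1 (ropporin), Ropn1l (ropporin-like) and Spa17 (sperm protein 17) encode small proteins with a domain like that of the PKA regulatory subunit RII, through which they bind anchoring proteins such as AKAP3.

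The values are FPKM, fragments mapped to a gene, divided by its length and by the depth of the library, so that levels per length can be set side by side between genes. The depth of the libraries is unknown in absolute terms. The relative depth read from the steps between low values ranged from 0.977 to 1.013. It rests on 65 genes, kept only where the steps of all libraries were nearly equal, so it could not show a large difference in depth. The labelled tissue was checked first, since the labels name testis as the source but sperm in the extraction text. Germ cell markers and markers of somatic cells of the testis were present in every library, with the spermatocyte gene Sycp3 at 118 to 163 FPKM, the spermatid gene Prm1 at 2951 to 9026, the Sertoli cell gene Sox9 at 3.14 to 6.3 and the Leydig cell gene Insl3 at 488 to 2382. The targeted transcripts were barely measured, with Chrm1 at 0.06 to 0.17 FPKM, Chrm3 at 0.01 to 0.11 and Chrm5 at 0.19 to 0.43 over the 15 libraries, with the M5 and MNC libraries overlapping for Chrm5, so the transcripts do not check the labels. Over the 14514 genes tested, libraries were compared by the root mean square difference on the log2 scale. M3 replicate 3 differed from the other M3 libraries by 0.394 and 0.421. Its differences from M5 replicates 1 to 3 were 0.39, 0.347 and 0.505. It thus lay nearer to M5 replicates 1 and 2 than to either of the other M3 libraries. The other pairs of libraries within a group differed by 0.228 to 0.485, with M5 replicate 3 at 0.485 and 0.386 from the other M5 libraries and MNC replicate 1 at 0.416 and 0.439 from the other MNC libraries, so M3 replicate 3 is not the most distant. The levels of Odf1, Ropn1 and Ropn1l in M3 replicate 3 lay apart, below those of the other M3 libraries. They are named where M3 is compared with MNC or M5. Its levels of Odf2, Akap4 and Spa17 lay above those of the other M3 libraries, at 1778, 801 and 1188 FPKM.

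For 4 of the members, 250 bases upstream of the RefSeq start site are shown, as sequences of the assembly GRCm38.p6 written 5′ to 3′ on the strand of the gene. Akap3, Akap4 and Fscb are shown because their windows share the letters TGATGTCA, which differ from the cAMP response element TGACGTCA in 1 base and are in capitals. Ropn1l is shown as the member whose levels differed most from the others and whose window lacks these letters.
Akap3 (chr6:126852848-126853097, + strand): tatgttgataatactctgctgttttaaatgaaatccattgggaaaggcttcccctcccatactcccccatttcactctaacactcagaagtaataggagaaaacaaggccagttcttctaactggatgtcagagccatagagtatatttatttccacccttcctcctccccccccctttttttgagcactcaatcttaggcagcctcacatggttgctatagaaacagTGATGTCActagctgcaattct
Akap4 (chrX:7067265-7067514, + strand): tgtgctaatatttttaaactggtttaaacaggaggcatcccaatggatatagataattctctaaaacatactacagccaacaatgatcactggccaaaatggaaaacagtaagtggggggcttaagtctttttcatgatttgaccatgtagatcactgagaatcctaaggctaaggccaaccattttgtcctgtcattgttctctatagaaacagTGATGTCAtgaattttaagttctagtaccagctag
Fscb (chr12:64474899-64475148, - strand): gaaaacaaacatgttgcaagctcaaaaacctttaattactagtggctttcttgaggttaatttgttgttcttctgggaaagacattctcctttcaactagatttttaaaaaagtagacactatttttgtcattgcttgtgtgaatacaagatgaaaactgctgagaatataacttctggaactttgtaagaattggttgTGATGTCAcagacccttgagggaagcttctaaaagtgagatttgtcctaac
Ropn1l (chr15:31453690-31453939, - strand): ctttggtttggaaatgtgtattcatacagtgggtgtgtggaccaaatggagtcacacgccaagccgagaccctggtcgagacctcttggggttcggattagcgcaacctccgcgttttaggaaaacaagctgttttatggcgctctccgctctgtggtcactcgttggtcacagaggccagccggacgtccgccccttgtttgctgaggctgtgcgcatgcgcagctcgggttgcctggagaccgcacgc

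The letters TGATGTCA begin at position -22 in the Akap3 window, at -35 in that of Akap4 and at -51 in that of Fscb, counted from the start site. On both strands they were found in 2.9% of all 32851 windows of this length, and in 3 of the 13 windows that the table holds for 8 of the members, since Akap4 has a second window without these letters. The windows of Akap3 and Akap4 also share the 20 bases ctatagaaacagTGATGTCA without a mismatch, and no other window of the 32851 holds this run. The full element TGACGTCA was in 1.5% of all windows and in none of the members', the shorter letters TGACG, which the full element contains, were in 17.8% of windows and, of the members, in Odf2, and GTTGCC, part of the X-box bound by RFX factors, was in 10.4% of windows and, of the members, in Ropn1l. The motifs were chosen after levels and windows had been seen, and a match is a description of the letters alone. Odf1 and Oaz3 have no window. The window of Ropn1, those of Odf2 and the second of Akap4 lie inside the span given for the gene, and those of Spa17 lie partly inside it. None of these is printed, and the TGACG match of Odf2 thus lies inside the gene's span.

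All 10 transcripts were abundant. By the mean of the 15 libraries their order was Oaz3 at 1721 FPKM, Odf2 at 1528, Odf1 at 1132, Ropn1l at 1037, Spa17 at 991, Akap4 at 663, Akap3 at 331, Ropn1 at 305, Odf4 at 156 and Fscb at 98.4. Over the 15 libraries, 7 of the 9 neighbouring pairs in this order overlapped in range, and the pairs that did not were Akap4 with Akap3 and Odf4 with Fscb. The summed level of the 10 transcripts was 6173 ± 657 FPKM (SD, n = 3) in Con, 8517 ± 201 in MNC, 8833 ± 106 in M1, 8656 ± 224 in M3 and 7638 ± 711 in M5. These sums were 1.296%, 1.695%, 1.75%, 1.719% and 1.513% of the summed FPKM of the library, in the same order.

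Among the outer dense fibre genes, Odf1 spanned the widest range of levels. It was at 679.95, 545 and 861 FPKM in Con replicates 1 to 3, at 1265, 1392 and 1330.1 in MNC, at 1456, 1370.3 and 1396 in M1, at 1427, 1370.0 and 1077 in M3, and at 939, 1029 and 847 in M5. All MNC and M1 libraries lay above every M5 library, M5 replicate 3 lay within the Con range, and M3 replicate 3 lay between the other M3 libraries and M5. Odf2 was at 1243, 1132 and 1371 FPKM in Con, 1495, 1555 and 1542 in MNC, 1617, 1535 and 1624 in M1, 1625, 1539 and 1778 in M3 and 1669, 1761 and 1437 in M5. Unlike the levels of Odf1, those of Odf2 lay above every Con library in 12 of the 12 libraries of the other groups, M5 included. Odf4 was at 129.8, 138 and 137 FPKM in Con, 273, 169 and 164 in MNC, 164, 160.0 and 138 in M1, 149.97, 154 and 166 in M3 and 144.5, 132 and 122 in M5. Its level of 273 in MNC replicate 1 stood apart from the other 14 libraries, which lay between 122 and 169.

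Oaz3, the most abundant member, moved between groups much as Odf1 did. It was at 1016, 854 and 1332 FPKM in Con, 1871, 2001 and 1927 in MNC, 2107, 2082 and 1996 in M1, 1998, 1937 and 1872 in M3 and 1639, 1783 and 1406 in M5. The M5 libraries lay between those of Con and those of MNC, with no overlap on either side.

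Akap3, a scaffold gene of the fibrous sheath, varied least of the 10 over the libraries. It was at 287, 289 and 291 FPKM in Con, 350.2, 363 and 362 in MNC, 336, 347 and 359 in M1, 367, 337 and 325 in M3 and 322, 323 and 307 in M5. Every M5 library lay above Con and below the lowest library of MNC, M1 and M3. Akap4 was at 498, 403 and 566 FPKM in Con, 603, 694 and 687 in MNC, 698, 714 and 737 in M1, 686, 667 and 801 in M3 and 736, 809.6 and 639.98 in M5, so that all 12 injected libraries lay above Con, and M3 and M5 overlapped with both MNC and M1. Fscb was at 65.4, 69.4 and 77.5 FPKM in Con, 90.5, 100.35 and 100.39 in MNC, 101 (replicate 1), 117 and 99.5 in M1, 109, 104 and 119 in M3 and 117, 112 and 94.3 in M5, again with all 12 injected libraries above Con.

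The RII-like genes did not move together. Ropn1 was at 263, 265 and 282 FPKM in Con, 334, 336 and 333 in MNC, 345, 333 and 323 in M1, 347, 327 and 281 in M3 and 269.8, 285 and 251 in M5. The Con and M5 libraries of Ropn1 overlapped and lay below those of MNC and M1. Ropn1l was at 1133, 1123 and 1099 FPKM in Con, 1041, 1094 and 1142 in MNC, 1088, 1029 and 1063 in M1, 1147, 1114 and 954 in M3 and 862, 872 and 799 in M5. It was the member in which Con and MNC overlapped, and all M5 libraries lay below every other library. Spa17 was at 761, 752 and 858 FPKM in Con, 987, 1005 and 941 in MNC, 1042, 1099 and 1023 in M1, 1056, 946 and 1188 in M3 and 1124, 1134 and 950.2 in M5, with all 12 injected libraries above Con and M5 within the range of the other injected groups. Groups that do not overlap were common over all genes. MNC lay above Con without overlap for 9 of the 10 members and for 15% of the genes tested, and M5 lay below MNC for 6 of the 10 and for 15.5%. All 12 injected libraries lay above all Con libraries for 6 of the 10 and for 6.25%.

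**Figure D1:**
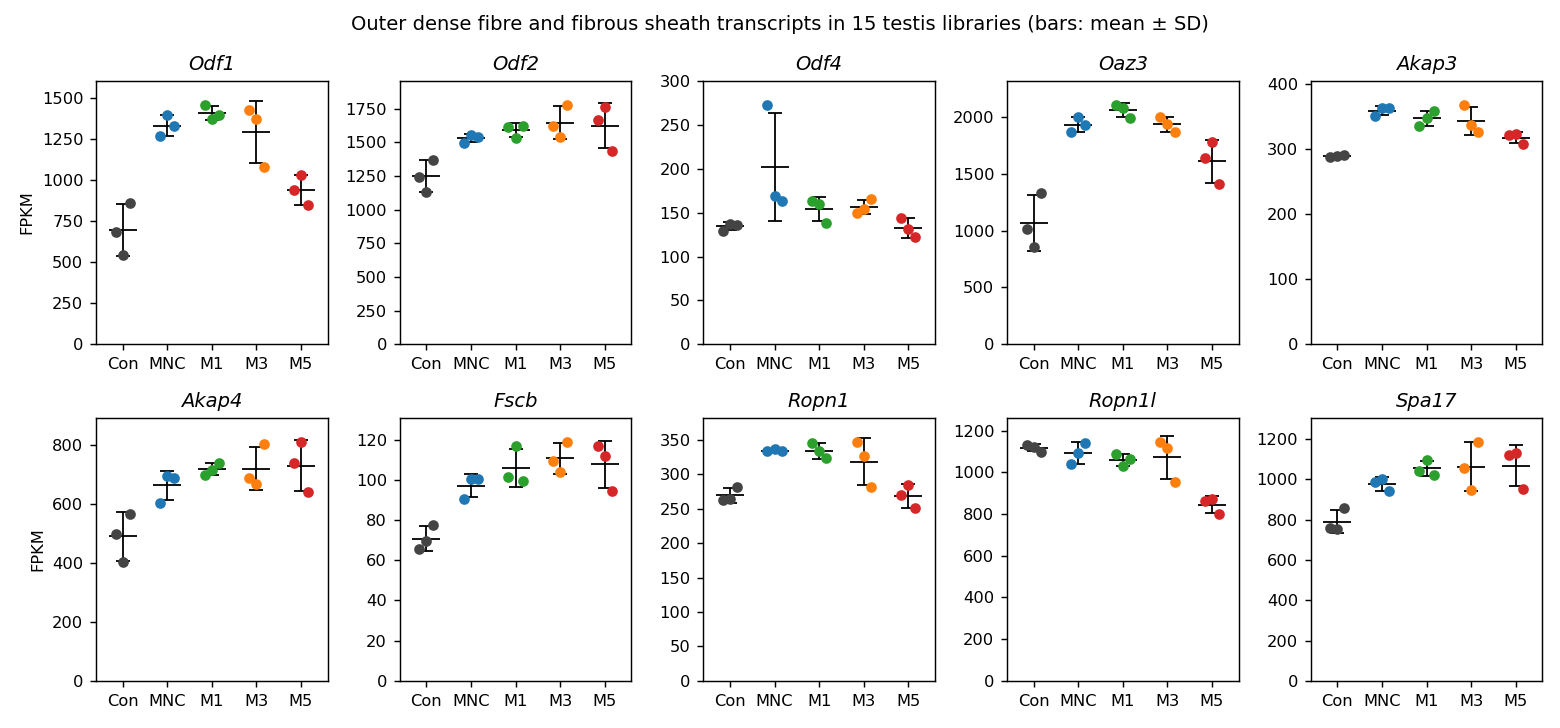
FPKM (y axis, from 0) of each of the 10 transcripts in the 5 groups (x axis). Points are libraries in the order of replicates 1 to 3, and bars are the mean ± SD (n = 3). Con lies below MNC without overlap for 9 members, Ropn1l being the exception, and M5 lies below MNC without overlap for Odf1, Odf4, Oaz3, Akap3, Ropn1 and Ropn1l. Over all genes tested these shares are 15% and 15.5%.

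The comparison of MNC with Con asked what differed between vector-injected testes and the control. Of the 10 transcripts, 7 were called higher in MNC by limma at an adjusted p under 0.05 and none lower. Of all genes tested, 20.4% were called and 8.03% were called higher, and the median log2 difference was 0.38 over the members and -0.10 over all genes. The direction of the calls over all genes depended on scaling, with 39.3% of them higher in MNC as tested, 77.5% after centring on the median and 68.4% after removal of the trend with GC content, while the members called were 7, 6 and 7, all higher. Quantile normalization left 5 members called higher and Ropn1l called lower, with a log2 difference of -0.28. Odf1 and Oaz3 had the largest differences of the 7, with Odf1 at 695 ± 159 FPKM (SD, n = 3) in Con and 1329 ± 63.5 in MNC, a log2 difference of 0.96 (SE 0.16, limma adjusted p = 0.0212). Oaz3 rose from 1067 ± 243 to 1933 ± 65.6 FPKM, a log2 difference of 0.88 (SE 0.16, limma adjusted p = 0.0237). Odf2 had the smallest, with a log2 difference of 0.30 (SE 0.077, limma adjusted p = 0.0425). Of the sheath genes, Fscb had a log2 difference of 0.45 (SE 0.078, limma adjusted p = 0.0224). That of Akap3 was 0.31 (SE 0.039, limma adjusted p = 0.0164), that of Ropn1 0.31 (SE 0.045, limma adjusted p = 0.0175) and that of Spa17 0.31 (SE 0.066, limma adjusted p = 0.0299). The members not called were Odf4, with a log2 difference of 0.54, Akap4, with 0.45, and Ropn1l, with -0.04, and the sign of the last turned with centring on the median and with removal of the trend with GC content. The difference of Odf4 includes the level of 273 FPKM in MNC replicate 1, beside 169 and 164 in MNC replicates 2 and 3.

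The count of 7 rested on single libraries, and so did the count over all genes. Leaving out Con replicate 1 gave 0 calls, Con replicate 2 gave 1 (Odf1), MNC replicate 2 or 3 gave 2 (Akap3 and Ropn1), MNC replicate 1 gave 6 and Con replicate 3 gave 8, while the calls over all 14514 genes, 2967 with every library, were 8, 195, 638 and 1032, 2497 and 1343 in the same order. The log2 difference of each of the 7 kept its sign in every one of these fits. In whole testis, fewer cells of a type and less RNA per cell cannot be told apart. Markers of several other cell types moved with this comparison, while those of Leydig cells and macrophages overlapped. Leydig cell markers summed to 1499 to 1947 FPKM in Con and 1546 to 1984 in MNC, with 0 of 5 called. Macrophage markers summed to 19.1 to 23.3 FPKM in Con and 19.0 to 31.7 in MNC, with 0 of 4 tested called. The summed level of 6 spermatocyte markers was 684 to 744 FPKM in Con and 545 to 576 in MNC, with 5 of the 6 called lower in MNC. Spermatogonial markers summed to 109 to 127 FPKM in Con and 85.2 to 96.2 in MNC, with 1 of 6 called lower, and Sertoli cell markers to 188 to 213 and 154 to 176, with 2 of 6 called lower. Of 6 round spermatid markers 3 were called higher, with sums of 953 to 980.1 FPKM in Con and 1131 to 1163 in MNC. The sum of the 4 elongating spermatid markers Tnp1, Tnp2, Prm1 and Prm2 was 9145 to 18613 FPKM in Con and 18634 to 24602 in MNC, with none of the 4 called. Epididymal markers summed to 14.4 to 34.2 FPKM in Con and 0.19 to 0.39 in MNC, where Lcn5 and Lcn8 were listed at 0. The epididymal sum was 0.88 to 21.9 FPKM in M3. The part of these markers in the differences of the members was not tested.

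M5 was then set against MNC, the comparison that carries the question of the study on the M5 receptor. Odf1, Ropn1l and Ropn1 were called lower in M5, 3 of the 10 members, and no member was called higher. Of all genes tested, 5.65% were called and 2.89% were called lower, and 48.8% of the calls over all genes were higher in M5, a share that was 69.8% after removal of the GC trend. In M5, Odf1 was at 938 ± 91.2 FPKM (SD, n = 3), against 1329 ± 63.5 in MNC, a log2 difference of -0.51 (SE 0.089, limma adjusted p = 0.0337). Ropn1l was at 844 ± 39.4 FPKM in M5 and 1092 ± 50.8 in MNC, a log2 difference of -0.37 (SE 0.068, limma adjusted p = 0.0363). Ropn1 was at 268 ± 16.8 FPKM in M5 and 334 ± 1.72 in MNC, a log2 difference of -0.32 (SE 0.061, limma adjusted p = 0.04). The other members were not called. Among them the log2 difference was -0.56 for Odf4, -0.27 for Oaz3 and -0.18 for Akap3, whose groups did not overlap. That of Odf4 includes the level of 273 FPKM in MNC replicate 1, beside 169 and 164 in MNC replicates 2 and 3. The log2 difference was 0.08 for Odf2, 0.14 for Akap4, 0.14 for Fscb and 0.13 for Spa17, whose groups did overlap, with the sign for Odf2 turning under quantile normalization. Under that normalization the members called were Oaz3, with a log2 difference of -0.36 (limma adjusted p = 0.011), Ropn1, with -0.29 (limma adjusted p = 0.0244), and Spa17, which was higher in M5 with 0.29 (limma adjusted p = 0.0385). Odf1, at -0.29, and Ropn1l, at -0.20, were then not called. The median was -0.22 over the members and 0.03 over all genes tested.

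**Figure D2:**
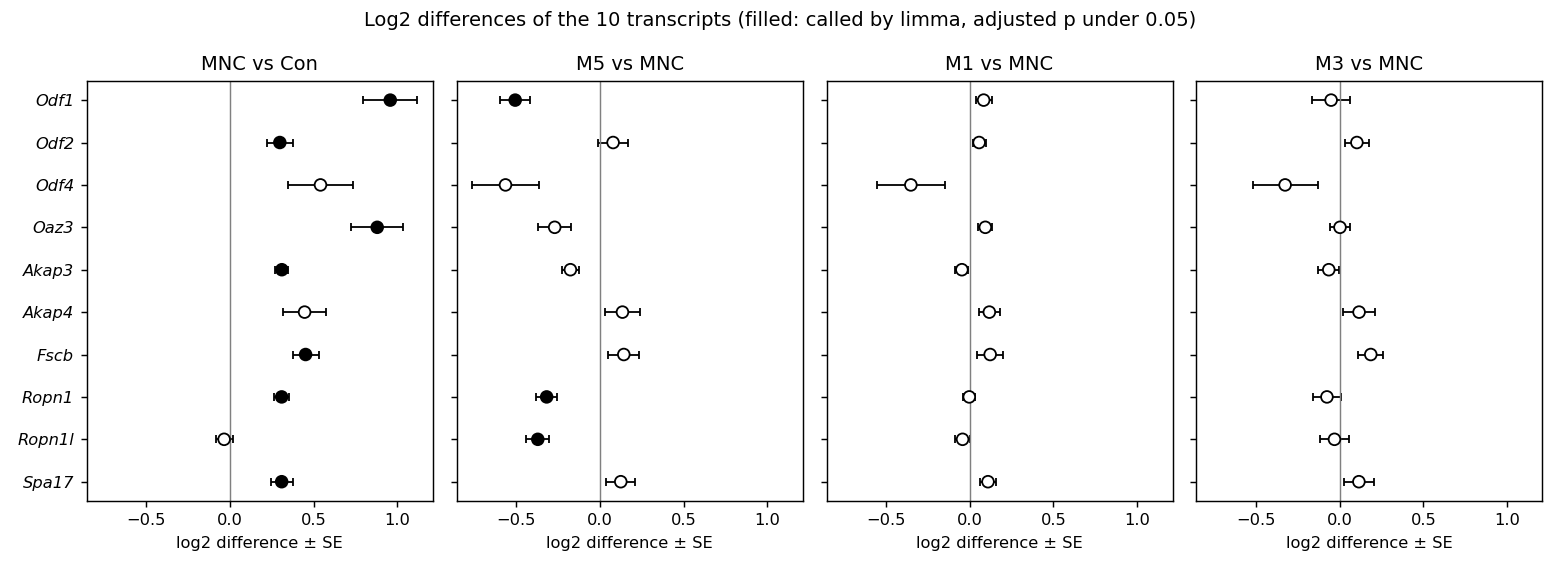
Log2 difference with its SE (x axis) for each member (y axis) in 4 comparisons, each of 3 libraries against 3, where filled points are called by limma at an adjusted p under 0.05. In MNC vs Con 7 members are called higher, Odf1 with 0.96 at the top, in M5 vs MNC Odf1, Ropn1 and Ropn1l are called lower, and in M1 vs MNC and M3 vs MNC no point is filled. The comparisons with MNC share its 3 libraries, and the open points near 0 change sign in some of the alternatives tried.

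The 3 calls in M5 vs MNC, 3 of 820 over all genes, were all lost when the values were centred on the median, when the trend with GC content was removed, and when M5 replicate 1, M5 replicate 2 or any 1 of the MNC libraries was left out, fits in which 35 to 362 genes were called in all. The differences stayed of similar size, at -0.54 for Odf1, -0.41 for Ropn1l and -0.36 for Ropn1 after centring and -0.50, -0.28 and -0.37 without the GC trend. Without single libraries the adjusted p ranged from 0.0322 to 0.126 for Odf1, from 0.0349 to 0.143 for Ropn1l and from 0.0368 to 0.136 for Ropn1, each with its sign kept. Spermatocyte markers summed to 625 to 669 FPKM in M5 against 545 to 576 in MNC, with 2 of 6 called higher, and round spermatid markers to 990.2 to 1044 against 1131 to 1163, with 1 of 6 called lower. Elongating spermatid markers summed to 19120 to 27310 FPKM in M5, a range that overlapped that of MNC, and none of the 4 was called. This sum hides opposite signs. The log2 difference was -0.70 for Tnp2 (limma adjusted p = 0.0584) but 0.17 for Tnp1, 0.15 for Prm1 and 0.39 for Prm2. All M5 levels of Tnp2, 2798 to 3661 FPKM, lay below its lowest MNC level of 4256. Set against M1, Tnp2 was called lower in M5, with -0.71 (limma adjusted p = 0.027). Red blood cell markers summed to 148 to 491 FPKM in M5 against 21.8 to 35.3 in MNC, with 3 of 5 called higher. M5 replicate 3, the lowest of the M5 libraries for all 10 members, had a Leydig cell marker sum of 3127 FPKM and a Sertoli cell marker sum of 239, the highest of the 15 libraries in both cases. The part of these markers in the differences was not tested.

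The comparisons of M1 and of M3 with MNC put the same question to the other receptors. No member was called in either. In M1 vs MNC, 0.0% of the genes tested were called by limma, 862 genes had an unadjusted p under 0.05, and Spa17 was the 1 member among these, at 1055 ± 39.3 FPKM (SD, n = 3) in M1 and 978 ± 32.9 in MNC. In M3 vs MNC, 0.00689% were called, which is 1 gene of 14514, and 1 member, Fscb, had an unadjusted p under 0.05, at 111 ± 7.75 FPKM in M3, as did 1369 genes in all (9.4%). The largest difference was that of Odf4 in both, with a log2 difference of -0.35 in M1 (SE 0.2, limma adjusted p = 0.827) and -0.33 in M3 (SE 0.19, limma adjusted p = 0.569). Both rest on MNC replicate 1, with the level of 273 FPKM. Without that library they were -0.12 and -0.09. The means of M3 replicates 1 and 2 alone were 1398 FPKM for Odf1, 337 for Ropn1 and 1130.3 for Ropn1l, beside 1329, 334 and 1092 in MNC.

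M5 was also set against M1 and M3, comparisons that share no control library. Against M1, the genes called were again Odf1, Ropn1l and Ropn1, all lower in M5, where 6.75% of all genes were called and 3.52% were called lower. Of the calls over all genes 47.9% were higher in M5, and 63.7% after removal of the GC trend. The log2 difference was -0.59 for Odf1 (SE 0.085, limma adjusted p = 0.0185), -0.33 for Ropn1l (SE 0.062, limma adjusted p = 0.0335) and -0.32 for Ropn1 (SE 0.062, limma adjusted p = 0.0372). All M5 libraries lay below all M1 libraries for each of the 3, and for 5 of the 10 members and 15% of the genes tested. The M5 libraries are the same as in the comparison with MNC, so these calls are no independent repeat. They too depended on the setting, with no call after centring on the median or removal of the GC trend, 4 calls, Oaz3 added, under quantile normalization, none without M5 replicate 1 or any 1 of the M1 libraries, 1 without M5 replicate 2 and 4 without M5 replicate 3, while 56 to 1690 genes were called in all when 1 library was left out. Against M3 no member was called, with 0.0138% of all genes called, 2 genes, and 5 members and 2077 genes in all (14.3%) at an unadjusted p under 0.05. The largest difference was that of Odf1, with a log2 difference of -0.46 (SE 0.14, limma adjusted p = 0.338). Without M3 replicate 3 it was -0.58 (limma adjusted p = 0.0738), still with no member called.

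With Con in place of MNC, the members of the knockdown groups lay mostly higher. Of the 10 members 8 were called in M1 vs Con, with 34.2% of all genes called, 8 in M3 vs Con, with 22.1%, and 4 in M5 vs Con, with 21.7%. All calls in M1 and M3 were higher than Con. In M5 the calls were Fscb, with a log2 difference of 0.60 (SE 0.1, limma adjusted p = 0.0112), Akap4, with 0.58 (SE 0.14, limma adjusted p = 0.0334), and Spa17, with 0.43 (SE 0.098, limma adjusted p = 0.0263), all higher than Con, and Ropn1l, which was lower than Con by a log2 difference of -0.41 (SE 0.067, limma adjusted p = 0.0107). Ropn1 had a difference of -0.01 in M5 against Con and Odf1 one of 0.45, neither called. The medians over the members were 0.39, 0.41 and 0.40 for M1, M3 and M5, while those over all genes were -0.12, -0.13 and -0.04.

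**Figure D3:**
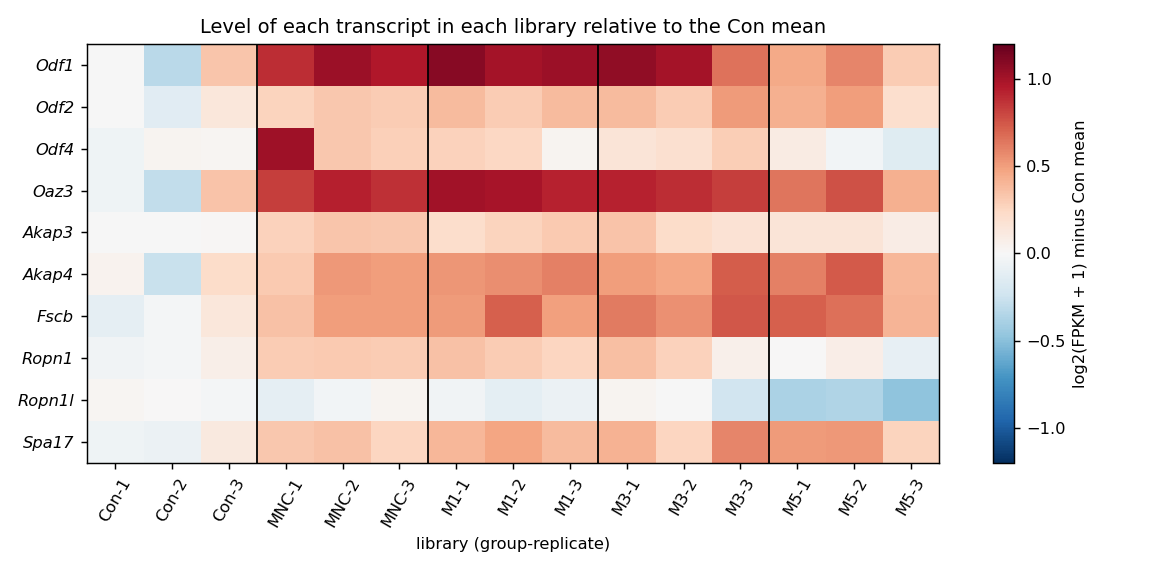
Level of each member (rows) in each of the 15 libraries (columns, group-replicate) as log2(FPKM + 1) minus the Con mean, in red where higher and blue where lower. Ropn1l is the row with blue in M5 and almost no colour in MNC and M1, Odf4 in MNC replicate 1 is the dark cell of its row, and the column of M3 replicate 3 resembles those of M5 in the rows of Odf1, Ropn1 and Ropn1l.

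Ratios of transcripts within 1 library do not depend on a single scaling factor for that library. They can change with removal of the GC trend, which moved Ropn1l in M5 vs MNC from -0.37 to -0.28 and Ropn1 from -0.32 to -0.37. The pairs were chosen after the levels had been seen, and the ratios are given as a description. The ratio of Odf1 to Odf2 was 0.547, 0.481 and 0.628 in Con, 0.846, 0.895 and 0.862 in MNC, 0.9, 0.893 and 0.86 in M1, 0.878, 0.89 and 0.606 in M3, and 0.562, 0.584 and 0.589 in M5. In M5 and Con the ratio thus lay in 1 range and in MNC and M1 in another, with M3 replicate 3 among the former. The ratio of Ropn1l to Spa17 was 1.488, 1.493 and 1.282 in Con, 1.054, 1.089 and 1.214 in MNC, 1.044, 0.936 and 1.038 in M1, 1.086, 1.177 and 0.803 in M3, and 0.767, 0.769 and 0.841 in M5. Here Con was highest and M5 lowest, and M3 replicate 3 again fell in the M5 range. The ratio of Ropn1 to its paralog Ropn1l was 0.241 ± 0.013 (SD, n = 3) in Con and 0.307 ± 0.015, 0.315 ± 0.01, 0.297 ± 0.005 and 0.318 ± 0.007 in MNC, M1, M3 and M5, with all 12 injected libraries above the 3 of Con. Odf1 to Oaz3 was 0.651 ± 0.016 in Con, 0.687 ± 0.01 in MNC, 0.683 ± 0.022 in M1, 0.666 ± 0.078 in M3 and 0.584 ± 0.016 in M5.

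**Figure D4:**
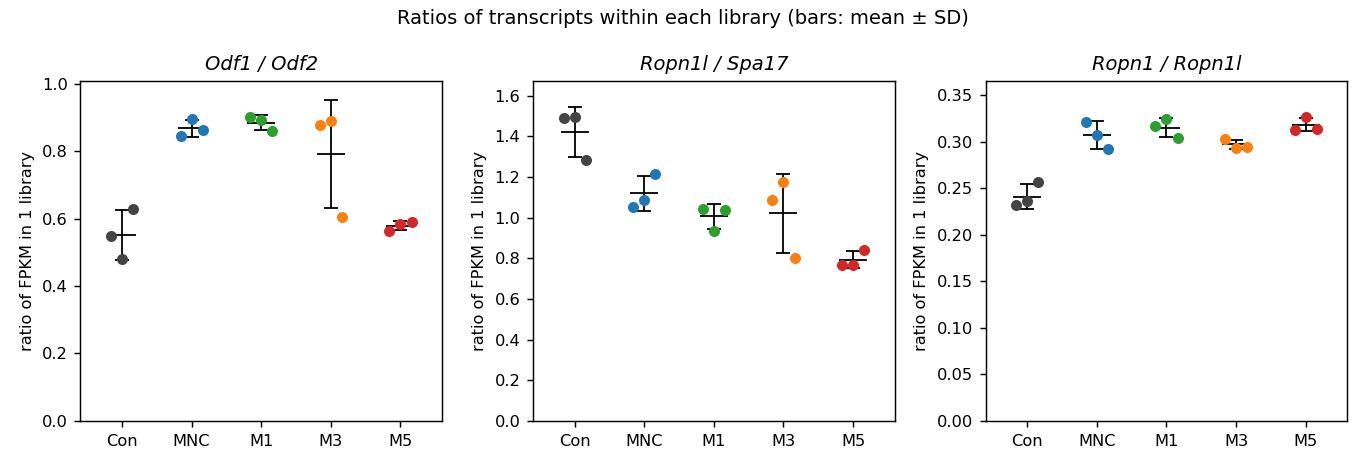
Ratio of the FPKM of 2 transcripts within the same library (y axis, from 0) in the 5 groups (x axis), with libraries as points and the mean ± SD (n = 3) as bars. For Odf1 to Odf2, M5 lies at 0.562 to 0.589 with Con, and M3 replicate 3 lies at 0.606, for Ropn1l to Spa17, M5 is lowest at 0.767 to 0.841, and for Ropn1 to Ropn1l the 4 injected groups lie between 0.292 and 0.326.

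The profiles of the members over the 15 libraries were compared after each was standardised on the log2 scale, by the root mean square difference (RMS) from the mean profile of the 10. Of the members, Oaz3 lay nearest to that mean, at 0.189, followed by Odf1 at 0.274 and Akap3 at 0.402, and Ropn1l lay farthest, at 1.324. Each member is itself part of the mean. Among all genes tested that have a symbol, 1 lay nearer to it than Oaz3, 19 than Odf1, 152 than Akap3, 404 than Odf2 and 3667 than Ropn1l, so many other genes share the profile. The closest pairs were Odf2 and Akap4 (RMS 0.208), Odf1 and Oaz3 (0.244) and Fscb and Spa17 (0.288). The genes outside the list whose profile was most like the mean were Nt5c1b (0.176), Gpat4 (0.212), Map7 (0.23), Csnka2ip (0.231) and Spata6 (0.232). Nt5c1b, which encodes a cytosolic nucleotidase, was at 222 to 272 FPKM in Con, 377 to 401 in MNC and 289 to 345 in M5. The GC content was 55.5% for the Ropn1l transcript, the highest of the members, and 45.3% for that of Fscb, the lowest, with a median of 49.9% over the genes tested.

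Other genes named after these structures or linked to them were taken as a list of 20 symbols. Of these, 19 matched a gene ID, all but Cimap1a, and 18 were tested. In MNC vs Con 10 of the 18 were called, 7 higher and 3 lower, where 20.4% of all genes were called and 8.03% called higher. Among the 10 were Gapdhs, the sperm glyceraldehyde phosphate dehydrogenase of the sheath, with a log2 difference of 0.79 (limma adjusted p = 0.0268), and Aldoart1, a spermatid aldolase, with 0.60 (limma adjusted p = 0.0107). In M5 vs MNC 4 were called, where 5.65% of all genes were called and 2.89% called lower. Odf3, with a log2 difference of -0.61 (limma adjusted p = 0.012), Odf3l1, with -0.50 (limma adjusted p = 0.0181), and Cabyr, a calcium-binding sheath protein with an RII-like domain, with -0.38 (limma adjusted p = 0.0211), were lower in M5, and Odf2l, a paralog of Odf2, was higher, with 0.32 (limma adjusted p = 0.0447). Against M1, Odf3, Odf3l1 and Cabyr were called lower in M5 again, and so was Spag4, beside 3.52% of all genes. Calls of genes outside the members were not followed under other settings. Over all genes, the calls in M5 vs MNC were 820 as tested, 182 with median centring and 96 with the GC trend removed. The list's median was 0.18 in MNC vs Con and -0.10 in M5 vs MNC, beside -0.10 and 0.03 over all genes.

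PKA is the kinase that the anchoring proteins of the sheath hold. Of its 6 subunit genes, Prkaca, which encodes a catalytic subunit, was called lower in M5 vs MNC, with a log2 difference of -0.42 (limma adjusted p = 0.0163), and none was called in MNC vs Con. Of 9 genes of the annulus and mitochondrial sheath, the neighbouring structures of the midpiece, 3 were called higher in MNC vs Con and 1 lower. Smcp, which encodes a cysteine-rich protein of the sperm mitochondria, had the largest difference of these, 1.16 (limma adjusted p = 0.0173). None of the 9 was called in M5 vs MNC. Over all genes, 20.4% were called in MNC vs Con and 5.65% in M5 vs MNC. Of 6 genes for nuclear proteins of elongating spermatids, Prm3 was called higher in MNC vs Con, with 0.70 (limma adjusted p = 0.0313), and none was called in M5 vs MNC. There the median of the list was 0.16, with 4 genes higher and 2 lower. The mean of Tnp2 was 5276 FPKM in MNC and 3227 in M5, and that of Prm3 was 305 and 431. The median of the 4 outer dense fibre members was -0.39, with 1 higher and 3 lower, so both lists were split.

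**Figure D5:**
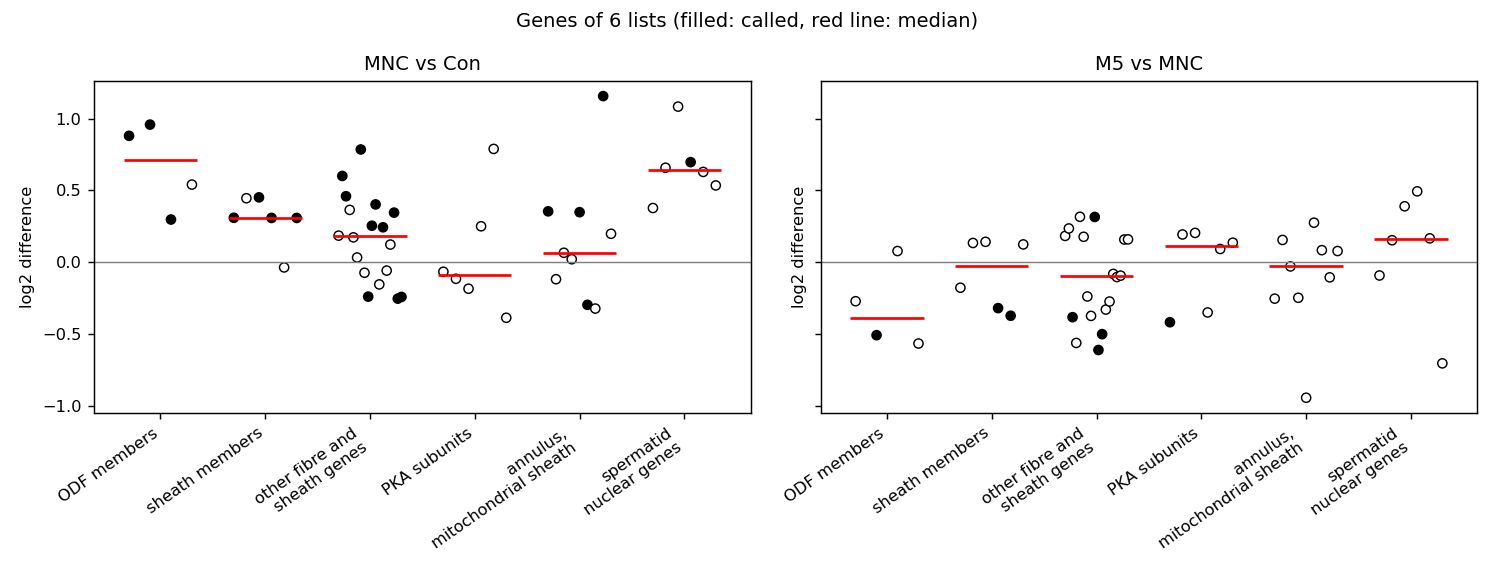
Log2 difference (y axis) of each gene of 6 lists (x axis) in MNC vs Con and in M5 vs MNC, with filled points called by limma and the median of each list as a red line. The median of the 4 outer dense fibre members is 0.71 in MNC vs Con and -0.39 in M5 vs MNC, and that of the spermatid nuclear genes 0.64 and 0.16. In M5 vs MNC both lists hold genes of both signs.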

How the data were processed

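The authors deposited 1 table of FPKM values, to 2 decimals, for 23510 gene IDs in 15 libraries. Per the study's methods, libraries of poly(A) RNA were read on a HiSeq sequencer, and SOAPaligner placed the reads on reference genes. The submitters' processing notes name the build mm10, and the annotation release was not given in the sources used here. Titles gave the groups and replicate numbers, also for M5 replicate 2, whose description points to the column of another M5 library. Symbols and coordinates came from RefSeq for GRCm38.p6, to which 21143 IDs matched, and GC content came from GENCODE transcripts for 92.1% of genes tested.

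Values were analysed as log2(FPKM + 1), a scale that understates changes of low genes. Genes with a mean of 1 FPKM or more were tested, 14514 in all, with limma 3.58.1 (lmFit, eBayes with trend) in R 4.3.3. The study's own test needs counts, which were not used here. Fits used only the libraries of the 2 groups compared, without covariates. Tests were two-sided with Benjamini-Hochberg adjustment over all 14514 genes, and calls were made at an adjusted p under 0.05. The fit was tested on simulated data. The absolute depth is unknown, so no counting interval is given, and precision rests on the spread of 3 libraries.

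The members, lists, markers and naming rule were chosen with earlier results of these data known. The 10 members are given in every library. Log2 differences with SE and adjusted p are given for members called in a comparison, or for the largest difference where none was called. Of the other lists, at most 4 genes called in MNC vs Con or M5 vs MNC are named by size of difference, and the 5 most like genes by RMS. Alternatives were a pseudocount of 0.1, filters of 0.1, 5 and none, median centring, quantile normalization, eBayes without trend, all 5 groups in 1 fit, a replicate block, the study's threshold, Con in place of MNC and omission of each library. A fit with the GC trend removed was added after seeing the data. Python 3.11.15, pandas 2.3.3, numpy 2.4.6 and matplotlib 3.10.9 were also used.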

Additional observations from a re-analysis of the deposited data

Results flagged for a closer look

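Differences between M5 and M1 passed the test of the difference itself for 3 members. The log2 difference of M5 from M1 was -0.589 for Odf1, -0.328 for Ropn1l and -0.315 for Ropn1 (limma adjusted p = 0.0185, 0.0335 and 0.0372). For each, all 3 M5 libraries lay below every M1 library, as they did for 15% of all genes tested. Of all genes, 6.75% were called and 3.52% were called lower. Without M5 replicate 1 or any 1 of the M1 libraries, none of the 3 members was called. None of the 3 was called after centring on the median, where the differences were -0.659, -0.398 and -0.385, or after removal of the GC trend, where they were -0.605, -0.28 and -0.376. Red blood cell markers summed to 148 to 491 FPKM in M5 and 27.1 to 79.3 in M1, and spermatocyte markers to 625 to 669 and 532 to 599, and their part in the differences was not tested.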

How the results depend on the processing

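The number of members called was 0 at the study's threshold and 0 with the replicate block in MNC vs Con, M5 vs MNC and M5 vs M1. In M5 vs MNC it was 0 with median centring, no filter, no trend or the GC trend removed, 1 with a filter of 0.1 and 5 with all groups in 1 fit. The counts over all genes moved with these, in M5 vs MNC from 820 to 2424 with all groups in 1 fit, and to 10, 14 and 39 genes with the block in the 3 comparisons. At the study's threshold they were 2, 6 and 8 genes in the 3 comparisons, so a call was rare for any gene. The study applied that threshold to its own test, not to limma. In M5 vs M1 the number of members called was 0 with median centring or the GC trend removed, and 1 with a filter of 0.1, no filter or no trend. With Con as the control it was 8 for M1 and 8 for M3. Without single libraries it ranged from 0 to 8 in MNC vs Con, 0 to 3 in M5 vs MNC and 0 to 4 in M5 vs M1.

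The median member difference in MNC vs Con moved to 0.468 with centring, 0.267 with quantile normalization and 0.471 with the GC trend removed. That of M3 vs MNC moved to 0.066 with the GC trend removed, that of M5 vs M3 to -0.278 with centring, and those of M5, M1 and M3 to 0.405, 0.386 and 0.412 with Con as the control. Con as the control also reversed Odf1 in M5 (0.452) and Odf4 in M1 (0.188) and M3 (0.215). Among members not called, it turned the sign of Oaz3 (0.61) and Akap3 in M5, of Akap3 and Ropn1 in M1, and of Odf1, Akap3 and Ropn1 in M3. The cause was not tested. Every called member kept its sign in every other alternative tried. Centring moved the median of all genes in M5 vs M3 from 0.057 to -0.046, the widest shift of the 6 comparisons. The deviations of same-numbered libraries had correlations of -0.399 to 0.177, and not every library was closest to its own number. In M5 vs MNC replicates 1 and 2 were (0.102 and 0.177), and replicate 3 was not (-0.052). The labels give only replicate numbers, and these correlations cannot decide whether the block belongs in the design.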

Other observations

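Outside the PKA subunits, 4 genes of the lists encode a protein with an RII-like domain. Of these, Ropn1, Ropn1l and Cabyr were called lower in M5 vs MNC and Spa17 was not, with a log2 difference of 0.13. This grouping was made after the values were seen. Of all genes tested, 2.89% were called lower. The calls of Ropn1 and Ropn1l were lost after median centring and after removal of the GC trend. Under quantile normalization Ropn1l was not called, and Spa17 was called higher in M5, with 0.295 (limma adjusted p = 0.0385). Cabyr was at 374, 369 and 349 FPKM in MNC, 287, 278 and 272 in M5 and 265, 274 and 254 in Con, so that its M5 libraries lay near those of Con. Over the 3 M3 libraries it was at 358, 321 and 294, with M3 replicate 3 nearest to M5.

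Of the 5 red blood cell markers, Hba-a1 was called lower in MNC vs Con (log2 difference of -1.45, limma adjusted p = 0.0251) and the others were not called. Hba-a1 was at 43.1, 26.6 and 59.96 FPKM in the Con libraries, while Hbb-bs was at 0, 0.08 and 0.09 and Hbb-bt was listed at 0 in each. In MNC, Hba-a1 was at 14.9, 13.8 and 14.5 FPKM and Hbb-bs at 10.2, 1.53 and 0.49.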
